A study of Mus musculus with 24 samples.

Results

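In cultured cerebellar granule neurons (CGNs) of the mouse, 290 of 21938 protein-coding promoters (1.32%) carried a peak of H3K27me3 in all 3 libraries taken at day in vitro (DIV) 1 and in none of the 3 libraries taken at DIV7. The promoters were chosen by the deposited peak lists of those 6 libraries, a promoter being the 6 kb window that reaches 3 kb to either side of a gene's 5′ end. The DIV1 and DIV7 values are therefore given as a description with no test, whereas the DIV3, DIV5, drug and DMSO libraries had no part in the choice. Overlapping windows joined the 290 promoters into 270 separate regions on 19 chromosomes, with at most 31 promoters on a single chromosome.

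The study profiled H3K27me3 by CUT&RUN, in which an antibody-directed nuclease releases the chromatin fragments that carry a mark, in 24 libraries of 8 groups with 3 cultures each. Granule neuron precursors were isolated on a Percoll gradient from CD1-IGS mice, an outbred stock, at postnatal days 6 to 8 and cultured for 1, 3, 5 or 7 days. In the drug experiments, 5 µM GSK-126, an inhibitor of the H3K27 methyltransferase EZH2, or 1 µM GSK-J4, which blocks the KDM6 family of demethylases, was added at DIV1 and the neurons were harvested at DIV5, each drug beside its own set of 3 DMSO cultures. All cultures received 1 µM cytosine arabinoside (AraC) at DIV2 according to the labels, to stop non-neuronal cells from dividing. Cells harvested at DIV1 had not yet reached that step, so the effects of AraC and of the days after DIV1 cannot be told apart. A replicate was a culture made from the pooled cerebella of litters, so that the p-values below measure the spread between such cultures.

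H3K27me3 is laid down by Polycomb repressive complex 2 (PRC2), whose catalytic subunit is EZH2 or EZH1, and is removed by KDM6A and KDM6B. It lies over promoters of genes that a cell holds silent, above all those of developmental regulators and of other cell lineages, and it is often found at CpG-rich sequence. Granule neurons leave the cell cycle in the first weeks after birth and then grow axons, acquire their mature channels and receptors, and form synapses. In nuclei from a whole culture, a mark present in fewer cells and a weaker mark in every cell cannot be told apart.

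Every value below is the share of a promoter's 6 kb window that deposited peaks covered in a library, called coverage. The peak lists covered between 1.07 and 6.57 Mb of the genome per library, their read depths are unknown, and list length bears on every count given here. The 3 DIV1 lists covered 1.33, 5.19 and 4.08 Mb and the 3 DIV7 lists 1.25, 1.19 and 2.25 Mb, so the days that define the 290 promoters also differed in list length. Of the remaining lists, DIV3 replicate 1 (1.11 Mb) was shorter than any DIV7 list and held a peak at 90 of the 290 promoters. The absence of peaks at DIV7 was set by the selection, so nothing about list length is read from this count. GSK-126 replicate 3 stood apart, with 1551 promoters that had a peak in that library and in no other of the 24 libraries. As a point of comparison, 554 promoters had peaks in all 3 DIV1 and all 3 DIV7 libraries and are called the stably marked promoters. Only 45 promoters had the opposite pattern, with a peak in all 3 DIV7 libraries and in no DIV1 library.

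The DNA under the DIV1 peaks of 7 of the promoters is shown here because their values carry the results that follow: 5 come from promoters last marked at DIV3 or DIV5, Enpp1 had lower coverage with GSK-126 than with DMSO over all deposited peaks, and Efnb2 had no peak at DIV3 or DIV5. Each run holds the bases that were inside a peak in all 3 DIV1 libraries, read 5′ to 3′ on the strand of the gene from the GRCm38.p6 (mm10) reference genome, with CpG dinucleotides in capitals. The Rimbp2 segment, at chr5:128952429-128952672 on the minus strand, lies in an intron and holds 12 CpG, and the Plk2 segment, at chr13:110395444-110395705 on the plus strand, lies in an intron and holds 20. The Jag1 segment is at chr2:137115192-137115261 on the minus strand, in an intron with 4 CpG. The Prox1 segment, at chr1:190173163-190173340 on the minus strand, lies outside protein-coding genes and is centred at −2538 bp from the 5′ end, upstream of it, with 6 CpG. The Cacnb4 segment, at chr2:52675203-52675419 on the minus strand, is intronic and holds 8 CpG. The Enpp1 segment, at chr10:24711201-24711323, and the Efnb2 segment, at chr8:8659891-8660138, are intronic on the minus strand and hold 5 and 23 CpG.
Rimbp2: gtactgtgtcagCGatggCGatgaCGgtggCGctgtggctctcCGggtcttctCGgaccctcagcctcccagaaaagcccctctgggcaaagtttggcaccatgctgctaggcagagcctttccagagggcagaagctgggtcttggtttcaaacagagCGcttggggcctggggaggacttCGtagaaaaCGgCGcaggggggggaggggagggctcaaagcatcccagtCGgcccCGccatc
Plk2: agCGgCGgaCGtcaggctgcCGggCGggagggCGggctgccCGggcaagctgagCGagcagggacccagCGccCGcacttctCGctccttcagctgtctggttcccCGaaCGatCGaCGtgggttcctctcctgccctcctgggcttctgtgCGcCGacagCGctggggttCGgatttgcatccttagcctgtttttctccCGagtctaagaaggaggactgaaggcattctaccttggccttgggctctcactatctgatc
Jag1: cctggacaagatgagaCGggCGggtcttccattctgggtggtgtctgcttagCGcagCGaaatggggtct
Prox1: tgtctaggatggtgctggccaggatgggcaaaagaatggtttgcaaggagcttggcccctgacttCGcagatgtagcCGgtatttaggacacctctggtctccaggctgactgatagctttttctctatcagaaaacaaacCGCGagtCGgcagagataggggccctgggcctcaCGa
Cacnb4: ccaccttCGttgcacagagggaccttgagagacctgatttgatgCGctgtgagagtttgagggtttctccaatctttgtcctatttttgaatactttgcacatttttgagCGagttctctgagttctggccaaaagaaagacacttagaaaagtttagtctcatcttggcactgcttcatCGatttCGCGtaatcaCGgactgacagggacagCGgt
Enpp1: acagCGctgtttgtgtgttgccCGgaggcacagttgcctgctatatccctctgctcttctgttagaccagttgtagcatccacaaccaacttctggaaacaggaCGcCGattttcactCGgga
Efnb2: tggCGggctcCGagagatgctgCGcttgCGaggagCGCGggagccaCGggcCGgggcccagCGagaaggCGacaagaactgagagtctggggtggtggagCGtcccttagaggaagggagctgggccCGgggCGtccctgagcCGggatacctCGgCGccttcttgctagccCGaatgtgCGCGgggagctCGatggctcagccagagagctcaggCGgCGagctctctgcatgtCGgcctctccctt

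These segments were short and mostly lay downstream of the 5′ end. A base shared by all 3 DIV1 libraries existed at 170 of the 290 promoters (58.6%), against 498 of the 554 stably marked promoters (89.9%), and the median shared segment was 125.5 bp long at the 290 promoters, against 243 bp at the stably marked ones. Of the 170 segments, 111 (65.3%) were centred downstream of the 5′ end, 93 (54.7%) in an intron, 42 (24.7%) outside protein-coding genes, 18 (10.6%) in a coding exon and 17 (10.0%) in an exon of an untranslated region. Within 500 bp of the 5′ end lay 25.9% of the segments, against 44.0% of those at stably marked promoters. DIV1 peaks covered the 290 promoters most often 700 bp downstream of the 5′ end, where 19.1% were covered on average over the libraries, whereas the stably marked promoters reached 51.3% at 500 bp downstream. The windows were rich in CpG: the ratio of observed to expected CpG had a median of 0.402 in the 290 windows, 0.361 in the stably marked ones and 0.323 over all promoters, and median GC content was 51.0%, 49.4% and 46.8% in the same order. Inside the shared segments the order was the other way, with a median CpG ratio of 0.437 in the 290 promoters' segments and 0.529 in those of the stably marked promoters. No difference of this paragraph was tested, since the DIV1 peaks that set the segments also chose the promoters.

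**Figure D1:**
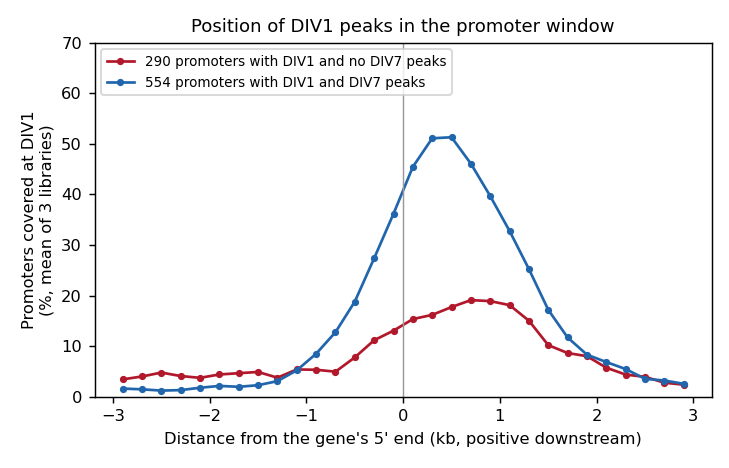
Position of DIV1 peaks within the promoter window. The x axis gives the distance from the gene's 5′ end in kb (positive downstream, bins of 200 bp) and the y axis the share of promoters covered by a DIV1 peak (%, mean of 3 libraries) for the 290 promoters (red) and the 554 stably marked promoters (blue). The red curve peaks at 19.1% and the blue curve at 51.3%, both downstream of the 5′ end.

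At DIV1 itself the peaks covered less of the window and had lower −log10 q over the 290 promoters than over the stably marked promoters, but not lower fold enrichment. Median coverage in the 3 DIV1 libraries was 3.57, 10.4 and 7.78% of the window at the 290 promoters and 6.74, 20.7 and 18.5% at the stably marked promoters. The best peak in the window had a median −log10 q of 1.37, 1.70 and 1.56 at the 290 promoters, against 1.48, 1.99 and 1.76 at the stably marked ones. Its median fold enrichment was 3.79, 3.65 and 3.65 at the 290 promoters and 3.62, 3.49 and 3.43 at the stably marked ones. The mean DIV1 coverage of a promoter ran between 1.89 and 27.1%, with a median of 7.28%. Once each time course library was limited to its strongest peaks up to the length of the shortest list (1.11 Mb), 25 of the 290 promoters (8.62%) still had a peak in all 3 DIV1 libraries and 37 (12.8%) had one in none, whereas 183 of the stably marked promoters (33.0%) had one in all 3.

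The members closest to the limit of the selection had small peaks. Just inside it, DIV1 coverage was 2.65, 2.18 and 0.850% at Slc6a6, which encodes the taurine transporter, and 2.47, 2.43 and 1.63% at Cyp2d22, a cytochrome P450. It was 0.833, 2.55 and 3.28% at Vsnl1, a neuronal calcium sensor, and 2.82, 0.933 and 3.18% at Sox10, a transcription factor of the oligodendrocyte and neural crest lineages. These peaks were short in every DIV1 library. Just outside it were 240 promoters with a peak in all 3 DIV1 libraries and in 1 DIV7 library, of which 71, 40 and 129 were left out because of DIV7 replicates 1, 2 and 3. At Slc28a3, a nucleoside transporter, DIV1 coverage was 2.62, 11.97 and 6.83% and DIV7 coverage 0, 0 and 0.833%. At Vwa1, a matrix protein, it was 3.18, 21.6 and 12.1% at DIV1 and 0.850, 0 and 0% at DIV7. At Fgf14, an intracellular regulator of sodium channels, it was 1.47, 2.38 and 4.97% at DIV1 and 0.850, 0 and 0% at DIV7, and at Nars, an asparaginyl-tRNA synthetase, 6.33, 3.87 and 4.58% at DIV1 and 0, 0 and 0.833% at DIV7. A single short peak thus separates these promoters from the members. A further 609 promoters had a peak in 2 DIV1 libraries and no DIV7 library, and 292 had one in all 3 DIV1 and 2 DIV7 libraries.

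On the days between, which the selection did not use, part of the 290 promoters had a peak. At DIV3, 31.0, 65.5 and 80.3% of the 290 promoters had a peak in the 3 libraries (59.0 ± 25.3%, mean ± SD, n = 3), and at DIV5 43.4, 27.2 and 43.4% did (38.0 ± 9.36%, n = 3). The libraries of these days overlapped in this count, DIV3 replicate 1 lying among the DIV5 libraries. As a share of all promoters with a peak in the same library, the 290 promoters made up 5.78, 6.80 and 6.08% at DIV3 and 4.74, 3.50 and 4.24% at DIV5, with every DIV5 library below every DIV3 library. This share still changes with list length. At a common length of 1.11 Mb, 90, 47 and 30 of them had a peak at DIV3 and 21, 31 and 15 at DIV5, and the shares of marked promoters were 5.78, 5.29 and 4.24% at DIV3 and 2.42, 2.88 and 1.75% at DIV5. Here too the shares of the days did not overlap. Over the stably marked promoters, 504, 549 and 553 of 554 had a peak at DIV3 and 549, 540 and 548 at DIV5.

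**Figure D2:**
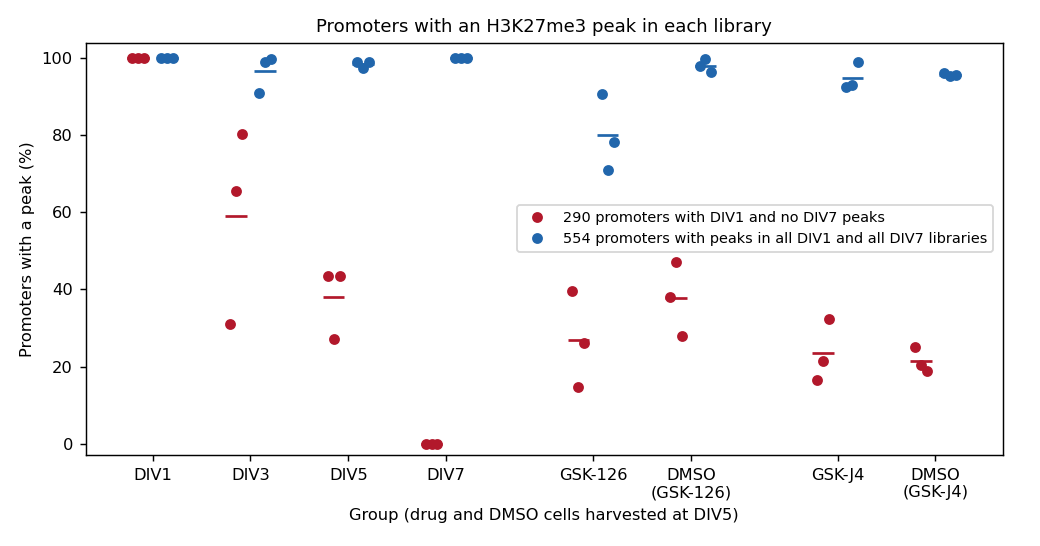
Share of promoters with an H3K27me3 peak in each of the 24 libraries. Each point is a library and each bar the mean of 3, for the 290 promoters (red) and the 554 stably marked promoters (blue), by group along the x axis with the y axis in percent. The DIV1 and DIV7 points lie at 100% or 0% because these libraries chose the promoters, while the red points lie between 31.0 and 80.3% at DIV3 and between 27.2 and 43.4% at DIV5.

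The last day with a peak divided the 290 promoters into 4 classes, taking a day as marked when at least 1 of its 3 libraries had a peak. At 33 promoters (11.4%) no peak was called from DIV3 on, and at 65 (22.4%) a peak was called at DIV3 and none from DIV5 on. At 183 (63.1%) a peak was seen at both DIV3 and DIV5 and none at DIV7, and at 9 (3.10%) a peak was absent at DIV3 and present at DIV5. A day without a called peak does not show that the mark was gone. Mean DIV1 coverage was 5.58, 8.06, 9.19 and 5.35% in these classes in the order given, so that the class absent at DIV3 and present at DIV5 had the lowest mean. The class rests on how many libraries a day needs: with 2 of 3 libraries in place of 1, 92 promoters rather than 33 were unmarked from DIV3 on. Peaks were seen in all 3 DIV3 libraries at 83 promoters and in all 3 DIV5 libraries at 36, and 23 had them in all 6. Where a DIV3 or DIV5 library had a peak at a promoter with a shared DIV1 segment, it lay on that same segment in 45.5, 69.2 and 72.0% of cases at DIV3 and in 52.9, 45.8 and 59.2% at DIV5.

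**Figure D3:**
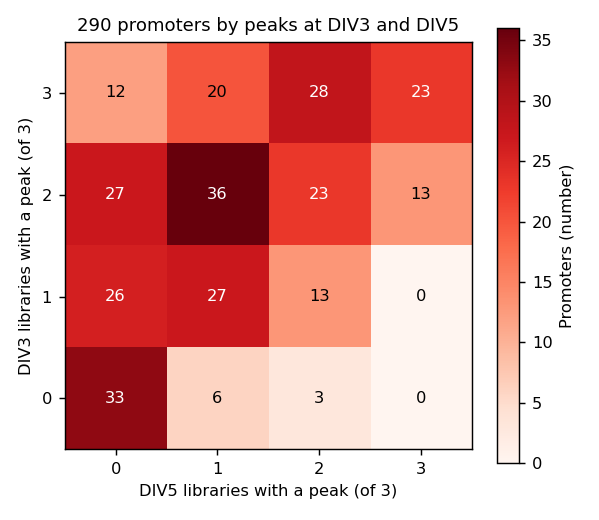
Number of the 290 promoters by how many of the 3 DIV5 libraries (x axis) and of the 3 DIV3 libraries (y axis) had a peak, with darker red for more promoters. The lower left cell holds the 33 promoters with no peak on either day, the upper right cell the 23 with a peak in all 6 libraries, and the upper left cell 12 with a peak in all DIV3 and no DIV5 libraries.

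No promoter passed the test between DIV5 and DIV3. Coverage of each promoter was compared with limma at the common length, for promoters covered in at least 3 libraries, with Benjamini-Hochberg adjustment over all promoters tested. None of 911 promoters was called (0%), and none of the 24 of the 290 promoters that could be tested, the smallest adjusted p among them being 0.263. Of these 24, 19 were lower and 5 higher at DIV5, with a median difference of −2.02 points of coverage, against 0.28 over all 911. At an unadjusted p under 0.05 lay 2 of the 24 and 58 of the 911. With all deposited peaks, again 0 of 2731 promoters and 0 of 168 of the 290 were called by limma, 141 of the 168 were lower at DIV5 with a median of −3.16, against −0.81 over all, and 11 of the 168 and 58 of the 2731 had an unadjusted p under 0.05. The filter of at least 3 covered libraries can admit a promoter through the day on which it is high. At the common length 90, 47 and 30 of the 290 had a peak at DIV3 and 21, 31 and 15 at DIV5. The direction is therefore given as a count and a median only, and nothing is read from it. The smallest unadjusted p was that of Spock1, whose difference of −13.5 ± 6.06 points (95% half-width) at the common length had an adjusted p of 0.263 by limma. Its coverage at that length was 15.9, 15.5 and 14.3% at DIV3 and 0, 5.17 and 0% at DIV5. The DIV3 libraries alone were thus enough to admit it to the test.

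Among the promoters with the highest DIV1 coverage, the peaks were lost at different times. Mmp23 (5′ end at chr4:155653384), which encodes a membrane-bound matrix metalloproteinase, had DIV1 coverage of 17.1, 29.7 and 34.6%, DIV3 coverage of 3.90, 32.1 and 27.6%, and DIV5 coverage of 16.4, 1.33 and 4.58%. DIV3 replicate 1 was low, and the ranges of neighbouring days overlapped. Mms19, a factor in assembling iron-sulfur proteins, and Ubtd1, a ubiquitin-domain protein, share most of a window on chromosome 19 and had the same DIV1 coverage of 16.8, 33.7 and 27.5%. At Mms19 it was 14.3, 10.1 and 18.1% at DIV3 and 6.32, 5.63 and 3.98% at DIV5, with DIV5 below DIV3 in every library. Spock1, the proteoglycan testican-1, had 12.8, 25.3 and 21.7% at DIV1, 15.9, 15.5 and 14.3% at DIV3 and 11.4, 5.17 and 12.3% at DIV5, again with no overlap between DIV5 and DIV3. Tmem108, a membrane protein of neurons, had 10.0, 23.3 and 23.5% at DIV1, 0, 5.97 and 9.27% at DIV3 and a peak in 1 library at DIV5 (6.20%).

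Rimbp2, which ties RIM proteins to calcium channels at presynaptic active zones, lost its peaks earlier. It had DIV1 coverage of 11.1, 36.8 and 25.5%. DIV3 coverage was 0, 6.77 and 4.73%, and no DIV5 library had a peak. All DIV1 values lay above all DIV3 values, but the DIV1 peaks also chose the promoter, so nothing is read from this. Peaks were present in all 3 GSK-126 libraries (7.35, 3.23 and 11.6%), against 3.98, 0 and 3.42% in their DMSO libraries. In the GSK-J4 experiment coverage was 3.17, 0 and 0% with GSK-J4 and 14.4, 1.33 and 0% with DMSO. That highest DMSO value exceeded every GSK-126 value. Other genes of vesicle release and neuronal structure among the 290, chosen after their values were seen, were the synaptotagmins Syt4, Syt7 and Syt12, the priming factor Unc13b, the dynamins Dnm1 and Dnm3, the vesicle proteins Sncb and Syngr3, the microtubule protein Mapt and the kinase inhibitor Camk2n1. Dnm1, a dynamin of vesicle endocytosis, had 8.15, 10.8 and 9.60% at DIV1, 0, 0 and 2.55% at DIV3 and no peak at DIV5. Mapt, which encodes tau, had 1.37, 11.8 and 7.95% at DIV1, 0, 3.10 and 0% at DIV3 and no peak at DIV5. In both, all DIV3 libraries but one were at 0.

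Ion channels and glutamate receptors made up part of the 290. Of 94 potassium channel promoters, 6 were members, among them Kcnh1, Kcnj12, Kcnk13, Kcnmb2 and Kcnt1, and of 41 voltage-gated calcium and sodium channel promoters, 3 were (Cacna1g, Cacna1i and Cacnb4), beside the 1.32% of all promoters. A member had to have a peak in all 3 DIV1 libraries, as 24 of the 94 and 7 of the 41 had. Over all promoters 1376 had such peaks, and 290 of these were members. Counts over a whole family, here and below, thus also reflect how often it was marked at DIV1. No such count was tested. None of 26 GABA and glycine receptor promoters was a member, nor had any of them a peak in all 3 DIV1 libraries. Of 27 glutamate receptor promoters, 7 had a peak in all 3 and 2 were members, Gria1 and Grin3b. Cacna1g, the pore of a T-type calcium channel, had DIV1 coverage of 7.35, 19.3 and 16.9%, DIV3 coverage of 8.70, 8.95 and 11.9%, and a peak of 1.43% in 1 DIV5 library. DIV5 lay below DIV3 in every library. Cacna1i, another T-type channel, had 1.23, 19.6 and 13.7% at DIV1, 3.02, 9.28 and 8.42% at DIV3 and 0, 3.02 and 0% at DIV5, with a single DIV5 library reaching the lowest DIV3 library. Cacnb4, a calcium channel β subunit, had 3.62, 17.1 and 15.3% at DIV1, 2.82, 0 and 2.05% at DIV3 and none at DIV5, nor a peak in any drug or DMSO library. Gria1, an AMPA receptor subunit, had 4.40, 14.6 and 7.05% at DIV1, 0, 3.72 and 10.0% at DIV3 and 0, 0 and 3.98% at DIV5. Grin3b, an NMDA receptor subunit, had 2.27, 9.38 and 8.47% at DIV1, 0, 1.25 and 6.18% at DIV3 and 0, 4.40 and 0% at DIV5. For both receptors neighbouring days overlapped.

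Signalling genes and fate regulators were present in smaller numbers. Jag1, a Notch ligand, had DIV1 coverage of 7.07, 24.5 and 15.8%, DIV3 coverage of 5.17, 18.4 and 28.1%, and DIV5 coverage of 2.03, 0 and 6.53%. Its DIV5 values reached into the range of DIV3. Hes7, a repressor downstream of Notch, was the other member of 24 Notch pathway promoters, and after 2.02, 6.22 and 5.32% at DIV1 it had no peak in any later, drug or DMSO library. Prox1 was the single member of 180 homeobox promoters, of which 6 had a peak in all 3 DIV1 libraries. This homeodomain factor kept its peaks on each day, with 5.15, 18.2 and 22.9% at DIV1, 9.53, 13.1 and 12.2% at DIV3 and 8.13, 9.33 and 12.9% at DIV5, and the ranges overlapped. Of 161 promoters of bHLH, Fox, Sox and related factors, 6 were members (Ascl4, Bhlhe40, Bhlhe41, Foxj1, Foxo6 and Sox10). Bhlhe40, an activity-regulated and circadian repressor, had 1.97, 13.7 and 13.7% at DIV1, 3.57, 8.70 and 10.2% at DIV3 and none at DIV5. Foxj1, a regulator of motile cilia, had 1.87, 9.97 and 10.6% at DIV1, 0, 4.18 and 2.15% at DIV3 and none at DIV5. No member came from 58 Wnt, 16 Hedgehog or 106 cadherin and protocadherin promoters. Of these, in the same order, 14, 0 and 4 had a peak in all 3 DIV1 libraries.

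Among growth factors and guidance molecules, 4 of 76 growth factor promoters (Igfbp3, Nrg1, Pdgfra and Ret), 1 of 65 BMP and TGF-β promoters (Bmp4) and 2 of 74 axon guidance promoters (Efnb2 and Efnb3) were members. Efnb2, an ephrin ligand, had one of the most even DIV1 coverages of those named, 7.08, 5.73 and 6.88%, and no peak at DIV3 or DIV5. Peaks of like size stood in 1 GSK-126 library (5.60%) and 1 of its DMSO libraries (5.88%). Igfbp3, a binding protein of insulin-like growth factors, had 4.60, 19.9 and 11.2% at DIV1, 0, 11.8 and 9.98% at DIV3 and 3.70, 0 and 2.60% at DIV5. At both genes the later peaks were present in some cultures of a group and absent from others. Cbln4, a secreted synapse organizer, had 11.2, 19.0 and 10.4% at DIV1 and a peak in replicate 3 alone at DIV3 (21.4%) and at DIV5 (8.42%). Of 61 cell cycle promoters, 3 were members (Ccnd2, Cdkn1a and Gadd45b). Ccnd2, the D-type cyclin of dividing granule neuron precursors, had 2.65, 10.4 and 18.4% at DIV1, 0, 2.80 and 7.90% at DIV3 and 4.90, 4.50 and 10.8% at DIV5, so that all 3 days overlapped.

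Other families held members too: 9 of 383 solute carriers, 3 of 130 matrix genes, 3 of 199 cytokine and chemokine genes, 1 of 117 epithelial junction genes. None of 79 ribosomal protein promoters was a member, and 2 of the 79 had a peak in all 3 DIV1 libraries. Arhgap26, a GTPase-activating protein, had DIV1 coverage of 8.70, 15.9 and 17.8%, DIV3 coverage of 0, 4.15 and 11.1%, and DIV5 coverage of 0, 0 and 2.02%. Rasgrp1, an exchange factor that activates Ras, had 6.22, 19.8 and 14.8% at DIV1, 2.02, 3.15 and 14.7% at DIV3 and 0, 3.95 and 8.97% at DIV5. Both had fewer covered bases on later days in most libraries, with overlap between neighbouring days. Slc22a4, a transporter of organic cations, had 1.87, 19.1 and 8.75% at DIV1, 0, 6.23 and 6.52% at DIV3 and a peak in 1 library at DIV5 (2.27%). Col1a1, a chain of type I collagen, had 3.58, 16.1 and 11.9% at DIV1, 2.83, 2.73 and 6.92% at DIV3 and 0, 2.58 and 9.28% at DIV5. All days overlapped at Col1a1, and DIV3 and DIV5 overlapped at Slc22a4. Il17d, a cytokine, was marked evenly at DIV1 (7.62, 6.55 and 7.67%), in 1 library at DIV3 (2.43%) and in no DIV5, drug or DMSO library. Cxcl12, a chemokine that guides granule neuron precursors, had 2.30, 5.52 and 4.23% at DIV1 and no peak at DIV3 or DIV5. Peaks stood there in 1 GSK-126 library (0.800%) and in 1 of its DMSO libraries (6.42%), the DMSO peak exceeding every DIV1 value. In all, 55 of the 290 promoters belonged to at least 1 list, and 19 had a Gm or Rik name only.

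The lists of marker genes were short, and their members among the 290 are given as counts only. Of 12 granule neuron marker promoters, 6 had a peak in some library, none had one in all 3 DIV1 libraries and none was a member. Members were 2 of 7 oligodendrocyte lineage markers (Pdgfra and Sox10) and 1 of 8 Purkinje cell markers (Calb1), beside the 1.32% of all promoters. None of 7 astroglial, 6 microglial, 6 interneuron or 6 endothelial and mural markers was a member. A peak in all 3 DIV1 libraries stood at 2 oligodendrocyte and 2 Purkinje cell markers, 1 interneuron marker and 1 endothelial and mural marker. No astroglial or microglial marker had such peaks. Lists of this size allow no reading of the shares, which were not tested. A peak at a promoter does not count cells of a type, and the part of changing cell composition in these values was not tested.

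**Figure D4:**
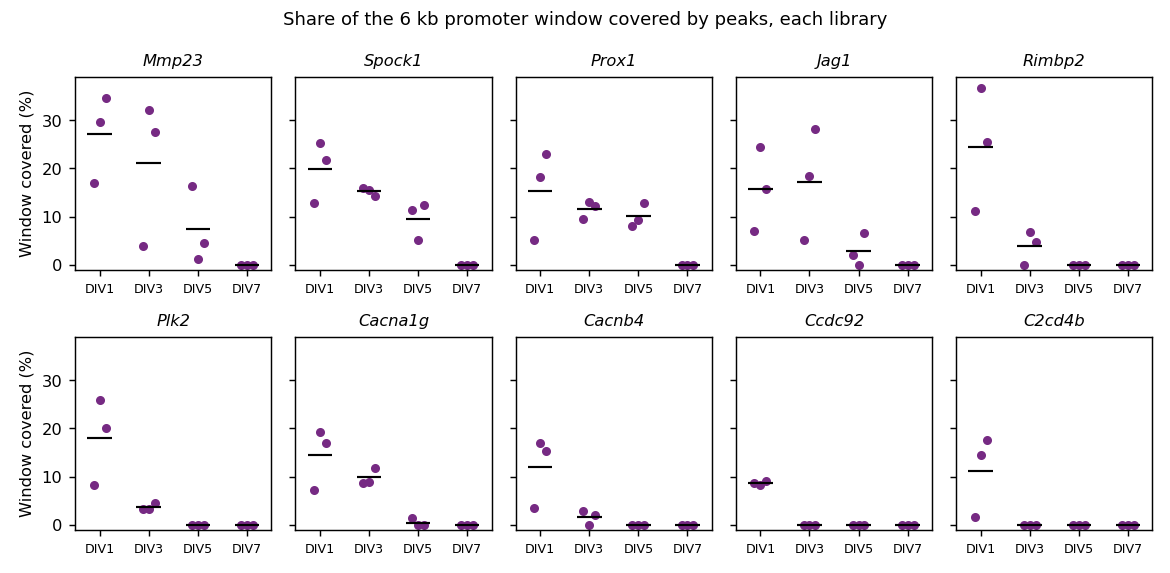
Coverage of the 6 kb promoter window by peaks (%, y axis) at DIV1, DIV3, DIV5 and DIV7 (x axis) for 10 members. Each point is a library and each bar the mean of 3. Mmp23, Spock1, Prox1 and Jag1 have points above 0 at DIV5, Rimbp2, Plk2 and Cacnb4 have none, and at Ccdc92 and C2cd4b every point after DIV1 is at 0.

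Promoters with no peak at DIV3 or DIV5 had mostly modest coverage at DIV1. C2cd4b, a gene of the C2 calcium-dependent domain family, had the highest mean of those with a gene symbol, with DIV1 coverage of 1.63, 14.5 and 17.6% and no peak in any later, drug or DMSO library. Slc35c1, the Golgi GDP-fucose transporter, followed with 3.10, 18.2 and 11.4%, also with no peak elsewhere. Ccdc92 and Zfp664, a zinc finger gene, start in opposite directions on chromosome 5 and share a peak of very even coverage at DIV1, 8.75, 8.23 and 9.03%, which was absent from all DIV3 and DIV5 libraries. Eif2b5, a subunit of the translation factor eIF2B, had 7.18, 14.0 and 4.95%, and Npb, neuropeptide B, 6.50, 4.13 and 18.6%, both at DIV1 alone. Over the 290, 21 promoters had no peak in any of the 18 libraries outside DIV1 and DIV7. Plk2, a polo-like kinase induced by neuronal activity and chosen after its values were seen, was intermediate, with 8.27, 25.8 and 20.02% at DIV1, 3.22, 3.27 and 4.50% at DIV3 and none at DIV5.

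Conversely, 3 promoters had a peak in all 21 libraries outside DIV7. They were Cdc42ep1, an effector of the GTPase Cdc42, Mal, a proteolipid of myelin and apical membranes, and Scube1, a secreted EGF-domain protein. Scube1 had 5.08, 16.02 and 16.9% at DIV1, 8.05, 22.3 and 16.6% at DIV3 and 5.93, 7.60 and 14.0% at DIV5. Its coverage at DIV5 in the drug experiments was of the same order, 14.8, 8.08 and 5.88% with GSK-126 and 17.0, 10.8 and 13.7% with DMSO, and 10.3, 6.35 and 14.8% with GSK-J4 and 17.1, 16.2 and 11.2% with DMSO. The ranges of drug and DMSO overlapped in both experiments. Atp2b4, a plasma membrane calcium pump, ran against the general course, with 1.03, 8.95 and 3.73% at DIV1, 4.10, 17.4 and 13.4% at DIV3 and 18.9, 11.2 and 15.6% at DIV5 before its absence at DIV7. Its DIV5 coverage was above its DIV1 coverage in every library, and 16 of the 18 libraries outside DIV1 and DIV7 had a peak there.

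The DMSO libraries of the drug experiments were harvested at the same day as the untreated DIV5 libraries. A peak was present in at least 1 untreated DIV5 library at 192 of the 290 promoters and in at least 1 DMSO library of the GSK-126 experiment at 172, with 140 in both (72.9% of the 192 and 81.4% of the 172). In the GSK-J4 experiment 105 had a peak in at least 1 DMSO library, 93 of which had one at untreated DIV5 (88.6% of the 105 and 48.4% of the 192). DMSO cultures had been exposed to the vehicle since DIV1, and the experiments were separate, so the vehicle and the experiment cannot be told apart.

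The share of the 290 promoters with a peak overlapped between the GSK-126 libraries and their DMSO libraries, although 2 of the 3 GSK-126 shares were lower than every DMSO share. Peaks were present at 39.7, 14.8 and 26.2% of them with GSK-126 and at 37.9, 47.2 and 27.9% with DMSO (26.9 ± 12.4% and 37.7 ± 9.66%, mean ± SD, n = 3 each). The GSK-126 lists covered 2.00, 1.07 and 1.63 Mb and their DMSO lists 3.29, 4.23 and 3.55 Mb, so the groups differed in list length too. At a common length of 1.07 Mb the order was reversed: 56, 43 and 43 of the 290 had a peak with GSK-126 and 23, 15 and 13 with DMSO, with no overlap. The stably marked promoters showed the same order at that length, with 374, 393 and 340 with GSK-126 against 341, 305 and 327 with DMSO and overlap between the groups. Over all promoters the number with a peak at this length was also higher in every GSK-126 library, 1051, 1348 and 2122, than in the DMSO libraries, 945, 846 and 918. As a share of these the 290 promoters made up 5.33, 3.19 and 2.03% with GSK-126 and 2.43, 1.77 and 1.42% with DMSO, and the groups overlapped. Which direction holds for the 290 promoters thus depends on whether lists are taken whole or at equal length.

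Of the 51 promoters with a peak in all 3 DMSO libraries of this experiment, 7 (13.7%) had none in any GSK-126 library, against 20.6% of all 1893 such promoters, and 18 (35.3%) had one in all 3. The share without a peak is thus not above that over all promoters. It is above that of the stably marked promoters, 4.52% of 531. It is also above the 7.66% of 979 such promoters that had a peak in all 3 DIV1 libraries. These differences were not tested. Coro2a, an actin-binding coronin, was among the 7, with no GSK-126 coverage and 12.6, 12.4 and 2.47% with DMSO. Spon1, an extracellular axon guidance protein, and Kcnt1, a sodium-activated potassium channel, likewise had no GSK-126 coverage, and with DMSO had 3.72, 15.1 and 4.27% and 13.2, 7.15 and 2.12%. Pdgfra, the receptor of oligodendrocyte precursors, had none with GSK-126 and 2.83, 3.73 and 11.6% with DMSO, and Wipf3, a WASP-interacting protein, none with GSK-126 and 7.87, 0.833 and 4.72% with DMSO. These 5 and Rgcc, the sixth by the naming rule, were all marked in some DIV3 library. Without GSK-126 replicate 3, the library that stood apart, 9 promoters in place of 7 had peaks in all DMSO and no GSK-126 libraries, and 27 of the 150 promoters with a peak in any GSK-126 library had it in that replicate alone.

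Tested with limma at the common length, 1 of the 20 members that could be tested (Cdc14b) was called between GSK-126 and DMSO, and 16 of the 20 had higher coverage with GSK-126 (median difference 3.84 points, against −0.51 over all 939 promoters tested). Of the 939, 2.45% were called higher and 4.37% lower. Members entered this test if covered in at least 3 of 6 libraries, which at this length happened mostly through the GSK-126 libraries, so nothing is read from these directions. With all deposited peaks, 6 of 87 members that could be tested were called, 5 lower and 1 higher, where 26.7% of 2385 promoters were called lower and 0.210% higher. The members' median difference was −1.73 points and that of all promoters −4.77. The share of members called lower was also below that of all promoters. Mean coverage with DMSO over all members, tested or not, was 2.15%, against 15.8% over the stably marked promoters. Members thus had less coverage to lose than those promoters. The comparison does not allow for this, so no lesser effect on members is read from it.

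The 5 members called lower with all deposited peaks were Adm, Enpp1, Kcnk13, Svil and Rgcc. Adm, the vasoactive peptide adrenomedullin, had 8.43, 2.25 and 1.82% with GSK-126 and 24.9, 22.6 and 16.9% with DMSO, a difference of −17.3 ± 6.72 points (95% half-width, limma adjusted p = 0.00724). Kcnk13, a background potassium channel, had 4.43, 5.28 and 0% with GSK-126 and 18.02, 18.2 and 21.5% with DMSO (−15.99 ± 4.90, limma adjusted p = 0.00404). Enpp1, an ectoenzyme that makes pyrophosphate from ATP, had 0, 3.15 and 0% with GSK-126 and 14.3, 15.4 and 16.7% with DMSO (−14.4 ± 4.03, limma adjusted p = 0.00339). In all 3 genes no GSK-126 library reached the lowest DMSO library, and each stayed called when any of the 6 libraries was left out (adjusted p between 0.00966 and 0.0303). At the common length the differences of Adm and Kcnk13 were 0.57 and 1.32 points (limma adjusted p = 0.944 and 0.884), and Enpp1 was covered in too few libraries to test, so these calls rest on the longer DMSO lists being taken whole.

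Svil and Rgcc rested on fewer libraries. Svil, the actin-binding protein supervillin, had 2.92, 0 and 0% with GSK-126 and 17.2, 7.65 and 20.8% with DMSO (−14.2 ± 8.05 points, limma adjusted p = 0.0235), and the call was lost without GSK-126 replicates 2 or 3 or DMSO replicates 1 or 3 (highest adjusted p 0.0742). Rgcc, a regulator of cell cycle kinases, had no peak with GSK-126 and 6.02, 4.90 and 8.82% with DMSO (−6.58 ± 3.94, limma adjusted p = 0.0284), and was not called without any 1 of the GSK-126 libraries (adjusted p between 0.0577 and 0.0965). It met the filter through its 3 DMSO libraries alone, which fixed the direction. Without any 1 of the DMSO libraries it was covered in too few libraries to test. At the common length neither Svil nor Rgcc was covered in enough libraries to test. These calls too rest on the longer DMSO lists being taken whole. At Adm, Enpp1, Kcnk13 and Svil the 3 DMSO libraries were likewise enough to admit the gene over all deposited peaks.

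Cdc14b, a dual-specificity phosphatase of the cell cycle, was the member called higher with GSK-126. It had 19.3, 20.02 and 21.4% with GSK-126 and 12.5, 12.5 and 9.07% with DMSO over all deposited peaks, a difference of 8.83 ± 4.08 points (limma adjusted p = 0.0118) that was not called without GSK-126 replicate 3 (0.0534). At the common length coverage was 19.3, 20.02 and 21.4% with GSK-126 and 0 in all DMSO libraries, a difference of 20.2 ± 3.72 points (limma adjusted p = 0.00595). At that length the gene passed the filter on low coverage through the GSK-126 libraries alone, which fixed the direction. Without DMSO replicate 2 the adjusted p was 0.0512, and without any 1 GSK-126 library it could not be tested. At DIV1 its coverage was 1.13, 18.6 and 8.72%, at DIV3 0, 1.10 and 23.6%, and at DIV5 12.7, 0 and 12.6%, so it varied more between untreated cultures than between those of either drug group.

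**Figure D5:**
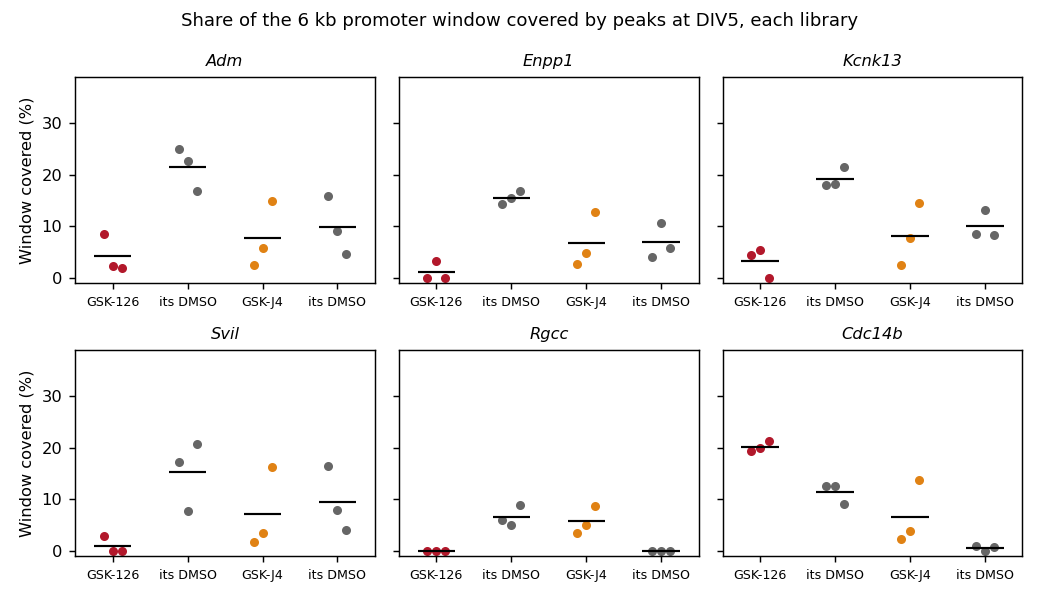
Coverage of the 6 kb promoter window by all deposited peaks (%, y axis) at DIV5 for the 6 members called with GSK-126, in the order GSK-126 (red), its DMSO, GSK-J4 (orange) and its DMSO along the x axis. Each point is a library and each bar the mean of 3. The red points lie below their DMSO points at Adm, Enpp1, Kcnk13, Svil and Rgcc and above them at Cdc14b.

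The GSK-J4 libraries and their DMSO libraries overlapped in the number of the 290 promoters with a peak. Peaks were present at 48, 62 and 94 with GSK-J4 and at 73, 59 and 55 with DMSO, or 23.4 ± 8.13% and 21.5 ± 3.26% (mean ± SD, n = 3 each), and at a common length of 1.40 Mb at 48, 45 and 29 with GSK-J4 and 35, 42 and 37 with DMSO. The groups overlapped in both. Of the 22 promoters with a peak in all 3 DMSO libraries, 4 (18.2%) had none in any GSK-J4 library, against 1.24% of all 1205 such promoters, and 10 had one in all 3. The same held for 0 of 499 stably marked promoters and 5 of 768 (0.651%) with a peak in all 3 DIV1 libraries. Conversely, 6 of the 17 promoters with a peak in all 3 GSK-J4 and no DMSO library were members, among them Rgcc, with 3.45, 5.00 and 8.70% with GSK-J4. No peak in these DMSO libraries was found at 185 of the 290 promoters and at 19094 of all promoters. The 4 promoters marked with DMSO alone were Gng8, Usf1, Ccn1 and 1700012B09Rik, named after their values were seen. Coverage with DMSO was 12.5, 1.85 and 2.85% at Gng8, a G-protein γ subunit, and between 0.833 and 5.35% at the others. The 6 marked with GSK-J4 alone were Ell3, Pdlim5, Gm39653, Plpp6, Atl2 and Rgcc, with GSK-J4 coverage between 0.850 and 8.70%. None of these counts was tested, and with so few promoters nothing is read from them. By limma, none of 1525 promoters was called between GSK-J4 and DMSO at the common length (0%), nor any of 32 members, whose median difference was −0.61 points, against −0.13 over all. At an unadjusted p under 0.05 were 0 of the 32 members and 73 of the 1525. With all deposited peaks 0 of 2034 promoters and 0 of 69 members were called by limma.

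The effects of the drugs were set against each other with limma as the GSK-126 difference minus the GSK-J4 difference. At the common length 1 of 48 members was called, Cdc14b, with a difference of 20.2 ± 3.36 points (limma adjusted p = 0.000151), where 0.566% of 1766 promoters were called higher. At this length it was at 0 in all 9 libraries outside the GSK-126 group and entered the test through those 3 libraries alone, so the call is not independent of the filter. Its coverage in the GSK-J4 experiment was 2.35, 3.85 and 13.7% with GSK-J4 and 0.833, 0 and 0.800% with DMSO over all deposited peaks, and the difference of the effects was then 2.76 points (limma adjusted p = 0.662). With all deposited peaks 1 of 130 members was called, Rgcc, at −12.3 ± 4.85 points (limma adjusted p = 0.0205), where 3.57% of 3026 promoters were called lower. Rgcc had no peak in any GSK-126 library or in any DMSO library of the GSK-J4 experiment. It entered the test only through the other 2 groups, whose coverage lowers this difference, so the filter fixed the direction. At the common length its difference was −3.51 points (limma adjusted p = 0.623). The call with all deposited peaks was lost without GSK-126 replicates 2 or 3 or DMSO replicate 2 of the GSK-J4 experiment (highest adjusted p 0.0645).

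The classes by the last day with a peak were compared with the state of the promoters in the drug and DMSO libraries. Of the 33 promoters without a peak from DIV3 on, 10 had one in some GSK-126 library and 4 in some DMSO library of that experiment, and 0 had one in any GSK-J4 library or its DMSO libraries. Of the 65 with a peak at DIV3 but in no untreated DIV5 library, 29 had a peak in some GSK-126 and 28 in some DMSO library, and 14 in some GSK-J4 and 12 in some DMSO library. Of the 183 still marked at DIV5, 59.6% had a peak in some GSK-126 and 75.4% in some DMSO library, and 56.3% in some GSK-J4 and 49.7% in some DMSO library. Of the 9 that were absent at DIV3 and present at DIV5, 22.2% had a peak in some library of each of these 4 groups. The DMSO shares rose over the first 3 classes, in cultures that the classes did not use. The fourth class, of only 9 promoters, had a peak at DIV5 but lay below the third. In the GSK-126 experiment it also lay below the second. Mean DIV1 coverage rose over the first 3 classes too (5.58, 8.06 and 9.19%). The last day with a peak and DIV1 coverage cannot be told apart here, and neither was tested.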

How the data were processed

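H3K27me3 was measured by CUT&RUN with an Active Motif antibody in 24 libraries of cultured CGNs. The authors trimmed reads with Trimmomatic 0.38, aligned them to mm10 with STAR 2.7.2b and called broad peaks per library with MACS2 2.1 at an FDR of 0.1. FastQC, bedtools 2.25.0 and DESeq2 1.36.0 are also listed in the submitters' processing notes. The control used in peak calling is not given in the sources used here. Each deposited list gives every peak's fold enrichment over background, a ratio, with its −log10 p and −log10 q values, and a display score that was not used. Lists hold no read counts, so depth is unknown and no counting interval is given.

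Promoters were 6 kb windows around protein-coding 5′ ends of the GENCODE mm10 annotation. No peak lay beyond a chromosome end of the GRCm38.p6 reference, and 400 of 400 promoter sequences compared were identical. Coverage per window was computed from all deposited peaks. For tests, the lists of an experiment were limited to the strongest peaks by −log10 p up to the shortest list (1.11 Mb for DIV5 against DIV3, 1.07 Mb for GSK-126 and for the difference of the drug effects, 1.40 Mb for GSK-J4). Coverage in percent was compared with limma 3.58.1 (lmFit, robust eBayes, two-sided, Benjamini-Hochberg at 0.05) in R 4.3.3 for promoters covered in at least 3 libraries. Tables and figures used Python 3.11.15, numpy 2.4.6, pandas 2.3.3 and matplotlib 3.10.9, and the test was tried on simulated data.

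Named genes were those with the highest DIV1 coverage, with peaks in all or no DIV3 and DIV5 libraries, called in a comparison, in 1 of the 23 gene lists (up to 4 each), at the limit of the selection, or with peaks in all DMSO and no GSK-126 or all GSK-126 libraries. The members, the gene and marker lists and this rule were chosen with earlier results of these data known. Alternatives tried were the whole deposited lists, a minimum −log10 q of 2, fold enrichment as the ranking, 1 kb flanks, a minimum of 100 bp covered, other filters, the replicate number as a block and each library left out in turn. Some items withheld from this work are not reported here.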

Additional observations from a re-analysis of the deposited data

Results flagged for a closer look

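At Cdc14b the effect of GSK-126 differed from that of GSK-J4 by 20.2 ± 3.36 points of coverage at the common length (95% half-width, 3 libraries per group, limma adjusted p = 0.000151). All 3 GSK-126 libraries were covered at that length and none of the other 9 libraries was, so it entered the test through the GSK-126 libraries alone and the filter fixed the direction. With all deposited peaks the difference was 2.76 points (limma adjusted p = 0.662).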

How the results depend on the processing

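The number of promoters with peaks in all DIV1 and no DIV7 libraries was 290, and 268 with at least 100 bp covered, but 183 with 1 kb flanks, 32 at the common length and 10 with a −log10 q of at least 2. Leaving out each library gave between 330 and 783 promoters, 783 without DIV1 replicate 1. The number unmarked from DIV3 on was 33, 29 with at least 100 bp covered, 20 with 1 kb flanks, 8 at the common length, 1 with a −log10 q of at least 2 and 92 where a day needed 2 libraries, and between 35 and 51 without each library, 51 without DIV3 replicate 3. Members called with GSK-126 numbered 1, against 6 with all deposited peaks (3, 4, 5, 5, 6 and 7 without each library, a check added after seeing the data) and 0 with peaks ranked by fold enrichment, and 0 to 1 without each library, the 0 arising without any 1 GSK-126 library or DMSO replicate 2. For the difference of the drug effects the number was 1 (Cdc14b), against 1 with all deposited peaks (Rgcc, 0 to 3 without each library), 0 with peaks ranked by fold enrichment and 0 to 1 without each library. For DIV5 against DIV3 and for GSK-J4 it was 0 under every alternative that gave a value. With a −log10 q of at least 2 no member was covered in enough libraries to test.

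Libraries of the same replicate number correlated between −0.09 and 0.18 in their deviations from the group means, so the numbers were not taken as pairs. With the replicate block, members called with GSK-126 numbered 0 (Cdc14b had a limma adjusted p of 0.137), or 5 with all deposited peaks, and for the difference of the drug effects 1, or 0 with all deposited peaks. Over all promoters the replicate block left 0 of the 64 calls with GSK-126, or 591 against 641 with all deposited peaks. The cause was not tested. Peak lists without read counts limit these results to whether and how far a peak was called.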
